A study of Mus musculus with 69 samples.

Results

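The comparison described here is that of older ovaries from Zeb1_200M and Zeb1_200H female mice, called 200M and 200H. It rests on 8 RNA-seq libraries, 4 of each genotype, chosen by their labels from the 69 libraries of the series. All 55401 gene IDs of the count table entered, and 17855 had counts high enough to be tested. Every mouse carried or lacked the same knock-in allele, in which point mutations disrupt the predicted miR-200a and miR-200b sites of the Zeb1 3′ UTR, on 1 copy of the gene in 200H and on each copy in 200M. The allele is germline, so it was present in all cells of the animal and not in the ovary alone. WT mice carry the unmutated gene, and their 4 older ovaries are given beside the others. The females were 28 to 36 weeks old on a C57BL/6J background, had been through a breeding trial, had since been kept without males, and were killed at proestrus as staged by vaginal cytology. By the study's account, most 200M females of that trial bore no litter, while 200H females were fertile. Older 200M ovaries also held few corpora lutea. Genotype, litters borne and ovulation history therefore go together in this contrast and cannot be told apart. The knock-in line came from independent ES cell clones, and the clone behind each library is not given in the labels.

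The miR-200 superfamily holds 5 mature miRNAs that fall into groups by their seed, the stretch of the miRNA that pairs with a target. They are shown because the mutated Zeb1 sites are those that pair with these seeds. Each sequence is the RefSeq mature miRNA of mouse (GRCm38.p6), written 5′ to 3′, with bases 2 to 8, the seed, in capitals.
mmu-miR-200a-3p: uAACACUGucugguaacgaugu
mmu-miR-141-3p: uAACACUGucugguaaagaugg
mmu-miR-200b-3p: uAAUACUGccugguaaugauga
mmu-miR-200c-3p: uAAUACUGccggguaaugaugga
mmu-miR-429-3p: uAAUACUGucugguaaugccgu
The first pair shares the seed AACACUG, and the other miRNAs share AAUACUG.

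As background, an ovary at proestrus holds follicles, in which granulosa and theca cells surround an oocyte, and the corpora lutea left by earlier ovulations. The surge of luteinizing hormone (LH) from the pituitary releases the oocyte and turns the emptied follicle into a corpus luteum, which makes progesterone and then regresses under prostaglandin F2α. A mouse that has cycled repeatedly keeps corpora lutea of several cycles, so luteal transcripts are normally plentiful at all stages. Macrophages and lymphocytes enter the ovary as follicles and corpora lutea break down. Zeb1 encodes a transcription repressor that binds E-boxes, and it is itself a target of the miR-200 family.

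Total counts ran from 7985206 to 14655095 per library. CPM below means counts scaled to library size with TMM factors over the 12 older ovary libraries, and 3 counts, taken as the floor of detection, equal 0.205 to 0.376 CPM in these 8 libraries. Such floors cover counting error only. Genes were tested with edgeR's quasi-likelihood test, and a gene was called at a Benjamini-Hochberg adjusted p under 0.05 over all genes tested. The numbered libraries are biological replicates according to the study's methods. In bulk tissue, fewer cells of a type cannot be told apart from less RNA per cell.

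Ovarian identity was present in all 8 libraries. Foxl2, the granulosa transcription factor, lay at 149 to 366 CPM, Inha, the inhibin alpha subunit, at 941 to 3675 CPM, and Gdf9, a growth factor made by oocytes, at 47.5 to 92.4 CPM. Some libraries also held RNA of neighbouring tissue. The summed level of 26 oviduct and ciliated epithelium genes was 111, 116, 710 and 4021 CPM in 200H replicates 1 to 4 and 447, 174, 4671 and 461 CPM in 200M replicates 1 to 4. 200H replicate 4 and 200M replicate 3 therefore stood apart, 1 in each of these genotypes. Library 200M 3 also had the highest adipocyte sum, 2968 CPM against 164 to 1344 CPM in the other 7 libraries, and the lowest granulosa sum, 5716 CPM against 9258 to 14912 CPM. Inhba, the activin and inhibin beta subunit of growing follicles, was at 28.7 CPM there and at 732 to 1311 CPM elsewhere. The first principal component of the 12 older libraries, 46.6% of the variance, placed 200M 3 at −94.6 and 200H 4 at −61.7, while the other 6 libraries lay between −9.94 and 37.8. The second, 22.4% of the variance, gave negative scores to all 4 200M libraries (−64.6 to −9.26) and positive scores to all 4 200H libraries (8.87 to 28.2).

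The targeted gene is given first, although its level is no check of the labels. Zeb1 (ENSMUSG00000024238, chr18:5591860-5775467, plus strand, GRCm38) was at 70.0, 82.0, 95.0 and 77.1 CPM in 200H and at 87.3, 77.5, 60.0 and 86.5 CPM in 200M. The groups overlapped, with a log2 fold change of −0.07 for 200M against 200H (95% interval −0.40 to 0.26, adjusted p = 0.915 by edgeR). The mutation changes bases of the transcript and not its presence, so gene counts do not read the genotype, and a rise in Zeb1 of more than 0.26 on the log2 scale lies outside the interval. Both groups carry the allele, so this contrast does not measure its effect on Zeb1 relative to WT. The study reported no change of Zeb1 in mutant ovary against WT. Zeb2, a paralog with miR-200 sites of its own that are intact here, gave −0.11 (interval −0.64 to 0.42, adjusted p = 0.916). Gm15884, the annotated host transcript of the miR-200c and miR-141 cluster, gave 0.10 (adjusted p = 0.936), and Gm13648, that of the miR-200b, miR-200a and miR-429 cluster, gave 0.43 (adjusted p = 0.930). Gm15884 shares 141 exonic bases with Phb2 on the opposite strand, which unstranded libraries cannot separate. Of 7 Zeb, Snail and Twist family genes tested, edgeR called 0 and DESeq2 called 0, with 1 at an unadjusted p under 0.05.

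Against that, the ovaries of 200M females differed widely from those of 200H females. Of 17855 genes, 288 were called (1.61%), with 161 lower in 200M (0.902%) and 127 higher (0.711%). The lowered genes changed more. Their median size was 2.11 on the log2 scale, 84 of the 161 exceeded 2 and 33 exceeded 4, while the raised genes had a median of 1.47 with 36 of 127 above 2 and 2 above 4. All 288 called genes had 4 200M libraries entirely below or entirely above the 4 200H libraries. Among all genes tested, 4.60% had 200M entirely below and 5.39% entirely above. The median log2 fold change of all genes tested was 0.01.

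**Figure D1:**
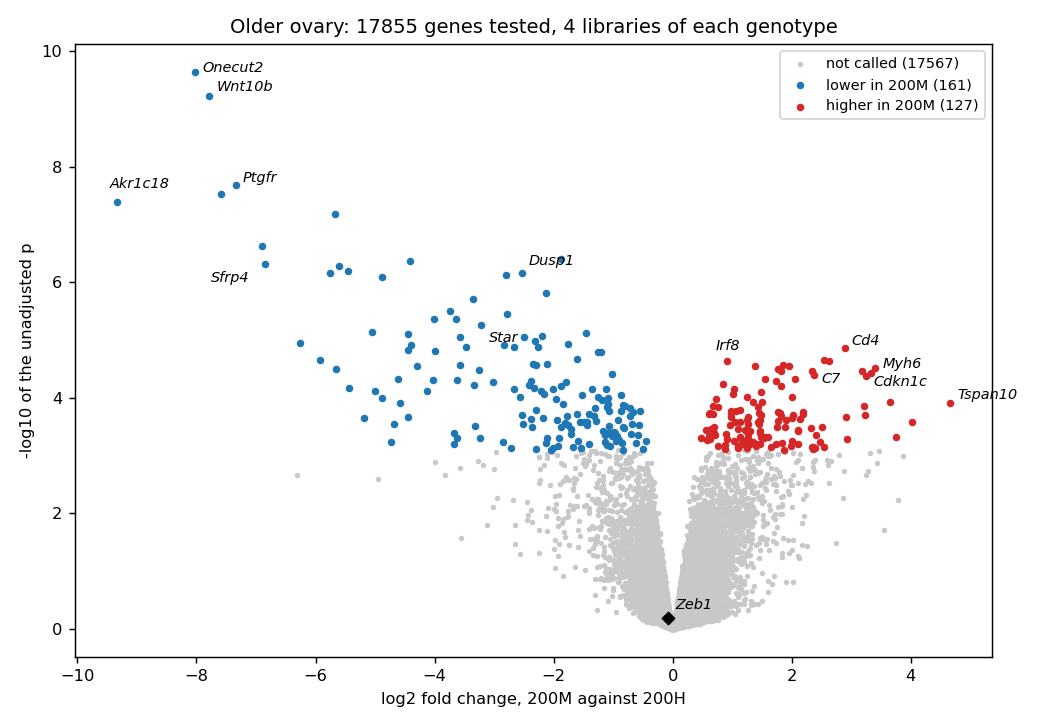
Each point is 1 of the 17855 genes tested in older ovary. The x axis is the log2 fold change of 200M against 200H and the y axis −log10 of the unadjusted p. The 161 lowered genes (blue) reach −9.34 at Akr1c18, the 127 raised genes (red) reach 4.66 at Tspan10, and Zeb1 (black diamond) lies at −0.07.

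The count of called genes depended on single libraries. It was 77 without 200M replicate 1, 81 without 200M 4, 89 without 200H 2 and 91 without 200H 1. It was 128 without 200H 3, 158 without 200H 4, 233 without 200M 2 and 357 without 200M 3. A smaller group alone lowers power, and its part in these counts was not tested. DESeq2 on the same counts called 861, among them all 288. With all 12 older libraries in the fit it was 402, and the balance turned to 232 higher and 170 lower (42.3% lower against 55.9% in the 8 libraries). DESeq2 gave 48% lower. The balance moved the other way, to 18 higher and 71 lower, without 200H 2 (79.8% lower), and to 9 higher and 49 lower at an adjusted p under 0.01 (84.5% lower). It was 20 and 57 without 200M 1 and 23 and 68 without 200H 1. Of the 63 called genes taken from the naming rule and the gene lists, 29 were called in all 8 fits that left out 1 library. These 29 were Onecut2, Wnt10b, Ptgfr, Ccn5, Akr1c18, Gm31135, Plekhg4, Olfml2b, Gm5106, Sfrp4, Abcb1b, Star, Runx2, Gpx3, Ephx2, S100a4, Dusp1, Nr4a1, Egr1, Cd4, Cd8a, 2600014E21Rik, Irf8, C7, Pla2g2d, Cyba, Acp5, Myh6 and Insl3, and the other 34 lost the call in at least 1 of the fits. Without both oviduct-rich libraries it was 260, of which 185 were among the 288. Libraries 200M 1 and 200M 4 resembled each other most (Pearson r of log2 CPM 0.985), but their counts differed by more than sampling noise (chi-square per degree of freedom 4.84), so they were kept as separate replicates.

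Luteal transcripts were among the genes that fell furthest in 200M. Of 26 genes listed as luteal markers, 24 were tested, 10 fell, 1 rose and 13 were not called, and 21 of the 24 had a negative log2 fold change. The median was −1.25 against 0.01 for all genes. Calls in this and the later lists are to be read beside the 1.61% called among all genes tested. Some genes, Star and Akr1c18 among them, stand in several lists, so calls of different lists are not separate results. Star, Cyp11a1, Runx2 and Sfrp4 are luteal genes that the study named from these same libraries, so their direction is not independent evidence. The list itself was chosen with earlier results of these data known. Its calls and median are therefore descriptions for the other members too. The summed level of the list was 21885 to 37888 CPM in 200H and 6815 to 15458 CPM in 200M, without overlap, and 17318 to 47859 CPM in WT. Between 9 and 11 of the members were called with any 1 library left out, and 11 without both oviduct-rich libraries.

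Among the luteal genes that fell were an enzyme and a receptor of luteal regression. Akr1c18 (chr13:4132615-4150654, minus strand), the 20α-hydroxysteroid dehydrogenase that inactivates progesterone as the corpus luteum regresses, was at 2440, 4429, 1432 and 2083 CPM in 200H and at 6.33, 2.04, 3.66 and 4.09 CPM in 200M. Every 200M library lay far below every 200H library, and the mean was 644-fold lower (log2 fold change −9.34, SE 0.55, adjusted p = 0.000146). Ptgfr (chr3:151796502-151837630, minus strand), the receptor for prostaglandin F2α, was at 816, 1302, 669 and 483 CPM in 200H and at 4.59, 3.48, 5.41 and 6.67 CPM in 200M. It fell by 7.34 on the log2 scale (SE 0.40, adjusted p = 0.000125), again with no library of 1 group near the other. The unstranded counts cannot separate Ptgfr from Gm43618, with which it shares 329 exonic bases and which moved from a mean of 30.8 CPM in 200H to 0.682 CPM in 200M. Abcb1b, a drug and steroid efflux pump, fell by 4.88 (SE 0.41, adjusted p = 0.000914). Gm5106, which was at 7 to 13.9 CPM in 200H and 0.379 to 0.655 CPM in 200M, shares 143 exonic bases with Abcb1b on the opposite strand, so its own log2 fold change of −4.41 is uncertain.

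Regulators and secreted factors fell by as much. Onecut2 (chr18:64340020-64400987, plus strand), a homeodomain transcription factor, was at 165, 171, 126 and 150 CPM in 200H and at 0.764, 0.360, 0.333 and 0.834 CPM in 200M. It had the smallest p of all genes (log2 fold change −8.03, SE 0.26, adjusted p = 4.09e-06), and its 200M levels were close to the floor of 3 counts. Wnt10b (chr15:98770712-98778150, minus strand), a Wnt ligand, was at 261, 181, 173 and 154 CPM in 200H and at 0.546, 1.08, 1.16 and 0.682 CPM in 200M. It fell by 7.79 (SE 0.28, adjusted p = 5.45e-06). Sfrp4 (chr13:19623104-19632994, plus strand), a secreted Wnt antagonist, was at 4756, 4607, 1661 and 1597 CPM in 200H and at 29.9, 26.5, 17.4 and 36.8 CPM in 200M. The 200H libraries fell into a higher and a lower pair for Sfrp4, yet even the lower pair stood far above 200M (log2 fold change −6.85, SE 0.54, adjusted p = 0.000869). Ccn5, a secreted matricellular protein, was at 142 to 436 CPM in 200H and at 1.08 to 1.53 CPM in 200M, and fell by 7.58 (SE 0.43, adjusted p = 0.000134). Runx2, a Runt-family transcription factor induced in luteinizing cells, fell by 3.75 (SE 0.37, adjusted p = 0.00298).

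Of 20 steroid synthesis genes tested, 2 fell and 0 rose. Star (chr8:25806555-25815982, plus strand), which carries cholesterol into the mitochondrion, was at 1201, 1635, 1164 and 1182 CPM in 200H and at 162, 120, 68.9 and 212 CPM in 200M. It fell by 3.21 (SE 0.34, adjusted p = 0.00435), and Akr1c18 was the other. Cyp11a1, the side-chain cleavage enzyme, was at 6018 to 8835 CPM in 200H and 1497 to 4486 CPM in 200M without overlap, but its log2 fold change of −1.18 (interval −1.94 to −0.41) had an adjusted p of 0.157 by edgeR. Cyp17a1, the androgen-forming enzyme of theca cells, was at −0.08 (adjusted p = 0.981) and Cyp19a1, the aromatase of granulosa cells, at −0.63 (adjusted p = 0.854). In all, 17 of the 20 had a negative value, with a median of −0.29. The receptors of pituitary hormones were not called. Lhcgr, the LH receptor, was at 696, 1022, 1268 and 496 CPM in 200H and 780, 864, 137 and 1101 CPM in 200M (log2 fold change −0.28, adjusted p = 0.908), where the low value belonged to the oviduct-rich library 200M 3. Prlr, the prolactin receptor, was at −1.27 (adjusted p = 0.291), and Fshr, the follicle-stimulating hormone receptor, at −0.89 (adjusted p = 0.326). Of 19 gonadotropin, prolactin and steroid receptor genes edgeR called 0, DESeq2 called 0, and 2 had an unadjusted p under 0.05.

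Other called luteal markers were Gpx3, a secreted glutathione peroxidase, at −2.34 (adjusted p = 0.00923), Rgcc, a cell cycle regulator, at −1.88 (adjusted p = 0.0307), and Bhmt, a methyltransferase of methionine metabolism, at 2.21 to 8.50 CPM in 200H and 0 to 0.249 CPM in 200M, where a fitted change rests on a few counts. Cdkn1c, which encodes the cell cycle inhibitor p57, was the 1 member that rose. Ephx2, a soluble epoxide hydrolase, fell from 673 to 1504 CPM in 200H to 116 to 247 CPM in 200M (log2 fold change −2.66, SE 0.31, adjusted p = 0.00646). Further genes with the smallest p among those lowered were Plekhg4 (80.1 to 261 against 0.910 to 2.16 CPM, log2 fold change −6.89), Olfml2b, an extracellular matrix protein (31.5 to 37.7 against 7.79 to 10.4 CPM, −1.87), and the uncharacterised Gm31135, at 7.65 to 8.30 CPM in 200H and 0.0758 to 0.240 CPM in 200M, where its size again rests on a few counts.

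**Figure D2:**
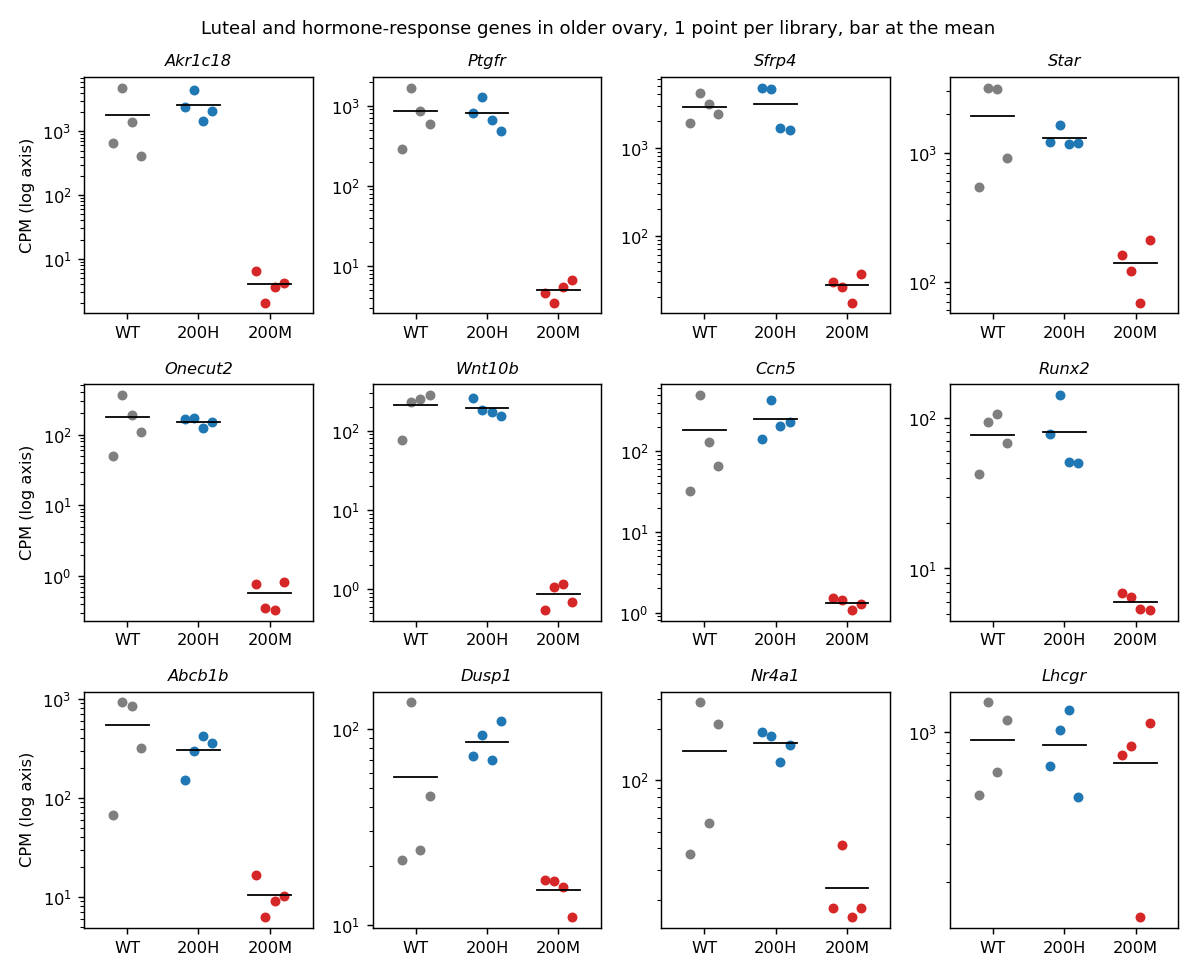
CPM on a log axis of 12 genes in older ovary of WT (grey), 200H (blue) and 200M (red), 1 point per library, with a bar at the mean of 4. For Akr1c18, Ptgfr, Sfrp4, Star, Onecut2, Wnt10b, Ccn5, Runx2, Abcb1b, Dusp1 and Nr4a1 the 4 red points lie below the 4 blue ones; for Lhcgr the groups overlap.

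Prostaglandin and Wnt genes were also considered as families, which share members with the luteal list. The calls of Ptgfr, Akr1c18 and Sfrp4 are the same as there. Of 23 prostaglandin synthesis and signalling genes tested, 3 fell and 0 rose. They were Ptgfr, Akr1c18 and Ptgds, the prostaglandin D synthase, which was at 9.97 to 25.9 CPM in 200H and 2.52 to 3.99 CPM in 200M (log2 fold change −2.37, SE 0.33, adjusted p = 0.0127). The synthases Ptgs1 (0.05, adjusted p = 0.979) and Ptges (−0.22, adjusted p = 0.8) were not called, and the family's median of 0.03 was close to that of all genes. Of 40 Wnt pathway genes, 4 fell and 1 rose. Beside Wnt10b and Sfrp4, these were Fzd2, a Wnt receptor (log2 fold change −0.67, adjusted p = 0.0246), and Lgr5, the R-spondin receptor also counted among surface epithelium markers (−2.71, adjusted p = 0.0478). Sfrp5, another secreted antagonist, was the member that rose, from 0.0944 to 0.602 CPM in 200H to 2.28 to 13.3 CPM in 200M (log2 fold change 4.02, SE 0.69, adjusted p = 0.0280). Axin2, a common readout of Wnt signalling, gave −0.08 (adjusted p = 0.913). Only 2 Wnt genes were called when 200H 1, 200H 2, 200H 3, 200M 1 or 200M 4 was left out.

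Immediate early genes, which hormones and stress switch on within minutes, were lower in 200M. Of 18 tested, 5 fell and 0 rose, 17 had a negative value, and the median was −0.94. Their summed level was 1795 to 2003 CPM in 200H, 903 to 1108 CPM in 200M and 1271 to 2122 CPM in WT. Dusp1, a phosphatase that switches off MAP kinases, was at 72.6, 93.9, 69.3 and 110 CPM in 200H and at 16.9, 16.8, 15.6 and 10.9 CPM in 200M. It fell by 2.54 (SE 0.21, adjusted p = 0.000875), with no overlap. Nr4a1, an orphan nuclear receptor that LH induces in theca and granulosa cells, was at 191, 182, 127 and 160 CPM in 200H and at 18, 41.8, 15.9 and 18 CPM in 200M (log2 fold change −2.83, SE 0.33, adjusted p = 0.00635). Egr1, a zinc finger factor needed for Lhb expression in the pituitary, fell by 1.45 (adjusted p = 0.00543), but the 200H libraries, at 156 to 202 CPM, also stood above the WT libraries at 72.0 to 97.7 CPM, while 200M was at 49.8 to 74.0 CPM. Junb (−1.09, adjusted p = 0.0207) and Zfp36 (−0.95, adjusted p = 0.0417) were the remaining called members. Junb shares 173 exonic bases with Prdx2 on the opposite strand, and Zfp36 shares 125 with Gm44710. Between 3 and 8 were called with 1 library left out, namely 3 without 200H 1, 200H 3, 200M 1 or 200M 4 and 8 without 200M 3, and 7 without both oviduct-rich libraries. The protocol describes rapid dissection and freezing in liquid nitrogen, and the time this took is not given per animal. Of 27 genes of the LH surge response, 2 fell, Star and Egr1, with a median of −0.28.

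The follicular compartments gave fewer calls. Of 34 granulosa markers edgeR called 0 and DESeq2 called 0, with 2 at an unadjusted p under 0.05 and a median of −0.14. Amh, the anti-Müllerian hormone of small growing follicles, was at 148 to 398 CPM in 200H and 181 to 373 CPM in 200M (log2 fold change 0.17, adjusted p = 0.913). Of 51 oocyte genes edgeR called 0 and DESeq2 called 1, with 3 at an unadjusted p under 0.05 and a median of −0.01. Zp1 (0.01, adjusted p = 0.992), Zp2 (0.08, adjusted p = 0.930) and Zp3 (0.09, adjusted p = 0.930), the zona pellucida proteins, and Gdf9 (0.01, interval −0.45 to 0.47) were close to 0, and Ddx4, the germ cell helicase, was at 0.90 (interval 0.22 to 1.59, adjusted p = 0.221).

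Theca and interstitial markers moved in opposite directions. Of 19 tested, 3 rose and 1, Ephx2, fell. Insl3 (chr8:71689214-71690575, plus strand), the insulin-like hormone of theca cells, was at 9.49, 7.27, 11 and 8.43 CPM in 200H and at 39.1, 27.8, 21.5 and 40.2 CPM in 200M. All 4 200M libraries were above all 200H libraries, 3.55-fold on average (log2 fold change 1.81, SE 0.24, adjusted p = 0.0101). Insl3 shares 404 exonic bases with Jak3 on the same strand, whose mean went from 26.8 to 54.4 CPM, so reads of the shared stretch cannot be assigned to either. Fabp3, a fatty acid binding protein (1.26, SE 0.21, adjusted p = 0.0256), and Nr2f2, a nuclear receptor of stromal and theca precursors (0.63, SE 0.10, adjusted p = 0.0248), rose by less. Only 2 of the list were called without 200H 1, 200H 2, 200H 4, 200M 1 or 200M 4.

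Some T cell, macrophage and class I antigen presentation genes rose in 200M. The summed level of 22 T cell and NK cell markers was 66.9, 66.0, 74.7 and 63.1 CPM in 200H and 238, 128, 155 and 185 CPM in 200M, beside 56.2 to 76.2 CPM in WT. Of 16 tested, 6 rose and 0 fell, with a median of 1.29. All 200M libraries lay above all 200H libraries for 12 of the 16, beside 5.39% of all genes tested. Cd4 (chr6:124864692-124888221, minus strand), the co-receptor of helper T cells that some mononuclear phagocytes also carry, was at 9.12, 5.67, 8.07 and 4.95 CPM in 200H and at 78.7, 34, 34.3 and 60.7 CPM in 200M. It was 7.47-fold higher in 200M (log2 fold change 2.89, SE 0.34, adjusted p = 0.00657) and had the smallest p of all raised genes. Cd8a, the co-receptor of cytotoxic T cells, was lower in level, at 0.342 to 0.602 CPM in 200H and 1.86 to 3.41 CPM in 200M (log2 fold change 2.34, SE 0.31, adjusted p = 0.01). Ccl5, a chemokine of activated T cells (1.77, adjusted p = 0.00987), Trbc2, a T cell receptor constant region (1.30, adjusted p = 0.0336), Cd3g (1.27, adjusted p = 0.0354) and Nkg7, a cytotoxic granule protein (1.30, adjusted p = 0.0435), were the other calls. Trbc2 has the near-identical copy Trbc1, so its count is uncertain. Klrb1c, an NK cell marker, was the 1 tested member with a negative value (−0.41, adjusted p = 0.742 by edgeR). Ncr1, Gzma, Gzmb and Prf1 were not tested, so the list says little of NK cells. The number of calls dropped to 2 without 200H 1, to 4 without 200M 2, and to 3 without any other library or without both oviduct-rich libraries, with Cd4 and Cd8a called in all 8 of the leave-one-out fits.

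Macrophage and phagocyte markers rose in sum in a less even way. Their summed level was 6178, 4366, 4469 and 4527 CPM in 200H and 18458, 5673, 7257 and 14135 CPM in 200M, so 200M 2 lay below the highest 200H library and 200M 1 and 4 far above it. Of 39 tested, 5 rose and 0 fell, 36 had a positive value and the median was 1.05. Acp5, the tartrate-resistant phosphatase of osteoclasts and foamy macrophages, was at 25.2, 17.4, 18.9 and 17.9 CPM in 200H and at 117, 52.9, 65.7 and 75.9 CPM in 200M (log2 fold change 1.96, SE 0.25, adjusted p = 0.00932), and it shares 137 exonic bases with 6530413G14Rik on the opposite strand. Itgax, the integrin CD11c, was at 10.5 to 22.9 CPM in 200H and at 150, 41.2, 38.8 and 124 CPM in 200M (2.54, adjusted p = 0.0459), and Cd68, a lysosomal marker, was called at 2.11 (adjusted p = 0.0335). Fcer1g (1.25, adjusted p = 0.0420) and Tyrobp (1.66, adjusted p = 0.0459) completed the calls. Lyz2, the macrophage lysozyme, and Gpnmb, a glycoprotein of lipid-laden macrophages, reached 2.37 and 3.44 but not the threshold (adjusted p = 0.0753 and 0.0625), and Adgre1, which encodes F4/80, was at 0.39 (adjusted p = 0.836). DESeq2 called 23 of the list. The edgeR count was 1 when 200M 1, 200M 4 or any 200H library was left out, 3 without 200M 2, 13 without 200M 3 and 8 without both oviduct-rich libraries.

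Genes outside these lists also rose. Irf8, a transcription factor of dendritic cells and macrophages, was tightly grouped at 22.5 to 29.1 CPM in 200H and 46.1 to 50.7 CPM in 200M (log2 fold change 0.91, SE 0.11, adjusted p = 0.00881). Cyba, a subunit of the phagocyte NADPH oxidase, was at 41 to 53.9 CPM in 200H and 97.4 to 162 CPM in 200M (1.38, SE 0.18, adjusted p = 0.00923). Pla2g2d, a secreted phospholipase of dendritic cells and macrophages, was at 3.31 to 6.64 CPM in 200H and 16.4 to 21.7 CPM in 200M (1.86, SE 0.24, adjusted p = 0.00923). C7 (chr15:4988762-5063740, minus strand), a component of the complement membrane attack complex, was at 19.2, 8.59, 23.8 and 23.7 CPM in 200H and at 133, 80.2, 105 and 150 CPM in 200M. It was the 1 of 20 complement and acute phase genes called (2.62, SE 0.33, adjusted p = 0.00881), while C1ra was at 0.37 (adjusted p = 0.219) and C1s1 at 0.31 (adjusted p = 0.311).

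Of 23 antigen presentation genes, 5 rose and 0 fell, and all 5 belonged to the class I side. H2-D1, a classical class I heavy chain, was at 251 to 293 CPM in 200H and 448 to 754 CPM in 200M (log2 fold change 1.06, adjusted p = 0.0241). The nonclassical H2-Q7 (1.24, adjusted p = 0.0178) and H2-Q6 (1.14, adjusted p = 0.0238), the class I transactivator Nlrc5 (0.96, adjusted p = 0.0298) and the immunoproteasome subunit Psmb8 (0.57, adjusted p = 0.0408) were the others. H2-Q6, H2-Q7 and H2-D1 are close paralogs, and the assignment of reads between them is uncertain. The class II genes H2-Aa (0.27, adjusted p = 0.673), H2-Ab1 (0.43, adjusted p = 0.498) and Cd74 (0.44, adjusted p = 0.442) were not called, and whether the classes differ was not tested. Without 200H 1, 200H 2 or 200H 3 no member of the list was called by edgeR, with 11 of the 23 at an unadjusted p under 0.05 in the full set and 8 called by DESeq2. The count was 1 without 200M 1, 2 without 200H 4 and 3 without both oviduct-rich libraries. Of 33 interferon response genes edgeR called 0, with 3 at an unadjusted p under 0.05 and 1 called by DESeq2; Ifit1 was at −0.69 (adjusted p = 0.439) and Ifit2 at −0.18 (adjusted p = 0.888). Of 14 B cell and plasma cell genes tested, 1 fell and 0 rose, while 12 had a positive value, 5 had p under 0.05 before adjustment and the median was 0.72. Cd79a, part of the B cell receptor (0.77, adjusted p = 0.617), and the plasma cell genes Jchain (1.41, adjusted p = 0.328), Igkc (1.33, adjusted p = 0.274), Ighg2b (1.70, adjusted p = 0.266) and Mzb1 (1.07, adjusted p = 0.575) were not called. The call was Sdc1, which marks plasma cells but also epithelia and luteal tissue, and which fell by 1.88 (SE 0.27, adjusted p = 0.0139). Of 7 neutrophil and mast cell genes tested, 1 rose and 0 fell, 4 had a negative value and the median was −0.56. The call was Csf3r, a neutrophil growth factor receptor (1.16, adjusted p = 0.0436), which was called in 0 of the 8 fits with 1 library left out. S100a8, a neutrophil protein, was at 1.09 (adjusted p = 0.434), and the mast cell proteases Cma1 (−0.84, adjusted p = 0.341), Mcpt4 (−0.60, adjusted p = 0.804), Tpsb2 (−0.56, adjusted p = 0.512) and Cpa3 (−0.88, adjusted p = 0.530) were not called.

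**Figure D3:**
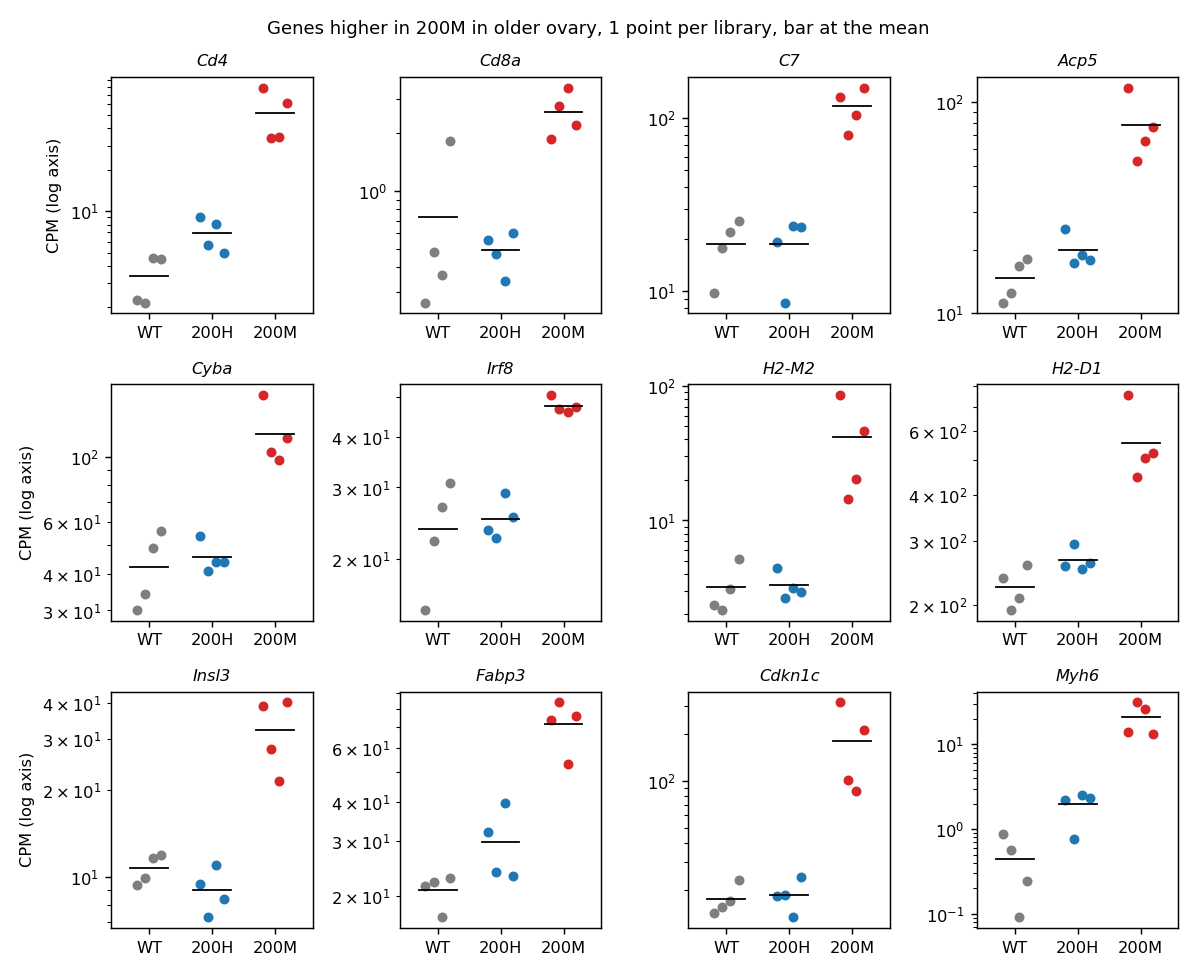
CPM on a log axis of 12 genes called higher in 200M, in older ovary of WT (grey), 200H (blue) and 200M (red), 1 point per library, with a bar at the mean of 4. In all 12 panels the 4 red points lie above the 4 blue ones, with the largest ratios of means for H2-M2 (12.6), Myh6 (10.8) and Cdkn1c (9.58).

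Other raised genes had roles outside immunity. Cdkn1c (chr7:143458339-143461050, minus strand) was at 18.2, 18.6, 13.4 and 24.4 CPM in 200H and at 317, 102, 85.6 and 210 CPM in 200M, with 200M 1 and 200M 4 highest (log2 fold change 3.25, SE 0.44, adjusted p = 0.0112). It shares 625 exonic bases with the antisense gene Gm44732, whose mean went from 7.48 to 76.3 CPM, so the 2 cannot be separated here. The other cyclin-dependent kinase inhibitors called moved the other way. Cdkn1a, which encodes p21, fell by 2.11 (adjusted p = 0.0387) and Cdkn2b, which encodes p15, fell by 3.67 (adjusted p = 0.0436), with 12.0 CPM in 200M 3 beside 1.36 to 1.53 CPM in the other 200M libraries. These were the 3 calls among 47 cell cycle genes, whose median was −0.02, and Mki67, the proliferation marker, was at 0.04 (adjusted p = 0.973). Myh6, the alpha cardiac myosin heavy chain, was at 0.755 to 2.53 CPM in 200H and at 13.9, 31.3, 26.1 and 13.3 CPM in 200M (3.40, SE 0.44, adjusted p = 0.00981). Its neighbour Myh7 was at 1.89 (adjusted p = 0.0514) and Mylpf, a fast skeletal muscle light chain, at 0.12 (adjusted p = 0.941). Apoe, the lipid carrier, rose by 1.13 (adjusted p = 0.0382) and Dhcr7, the last enzyme of cholesterol synthesis, fell by 1.44 (adjusted p = 0.0298). They were the 2 calls among 43 cholesterol genes (4.65%, against 1.61% of all genes tested).

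The remaining large rises were of genes low in 200H. Tspan10, a tetraspanin, was at 0 to 0.273 CPM in 200H and 1.5 to 7.43 CPM in 200M (adjusted p = 0.0201), Awat1, an acyltransferase of wax synthesis, at 0.134 to 0.369 against 0.998 to 5.90 CPM (adjusted p = 0.0386), and the uncharacterised 2600014E21Rik at 0.277 to 0.536 against 1.91 to 3 CPM (adjusted p = 0.00881). H2-M2, a nonclassical class I gene, was at 2.64 to 4.42 CPM in 200H and at 85.5, 14.5, 20.4 and 46 CPM in 200M (log2 fold change 3.65, SE 0.56, adjusted p = 0.0198). For Tspan10, Sfrp5, Awat1 and H2-M2, 200M 1 was the highest library, and each lost its call in at least 5 of the 8 fits with 1 library left out.

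Epithelial and stromal lists gave few calls. Of 41 epithelial genes tested edgeR called 0, with 5 at an unadjusted p under 0.05 and 1 called by DESeq2. Epcam and Cdh1, both epithelial adhesion genes, were at 9.95, 14.5, 20.9 and 77.3 and at 5.16, 11, 31.9 and 145 CPM in 200H. In 200M they were at 12.1, 3.24, 109 and 9.33 and at 32.4, 5.27, 196 and 27.1 CPM. In each genotype the highest library was the oviduct-rich one, and the log2 fold changes were 0.10 (adjusted p = 0.987) and 0.41 (adjusted p = 0.941). The oviduct genes Ovgp1, at 2893 CPM in 200H 4 and 2826 CPM in 200M 3, and Pax8 were not called, nor were any of the 19 oviduct or 11 adipocyte genes tested by edgeR or DESeq2, none of which had an unadjusted p under 0.05. Adipoq was at 0.38 and Lep at 0.13. The mesothelial genes Upk3b (−0.83, adjusted p = 0.634) and Upk1b (−1.09, adjusted p = 0.414), the globin genes Hba-a1 (−0.87, adjusted p = 0.711) and Hba-a2 (−0.88, adjusted p = 0.720), the endothelial genes Pecam1 (−0.45, adjusted p = 0.384) and Cdh5 (−0.13, adjusted p = 0.810), the smooth muscle genes Acta2 (−0.17, adjusted p = 0.844) and Tagln (−0.22, adjusted p = 0.837), and the collagens Col1a1 (−0.33, adjusted p = 0.754) and Col1a2 (−0.03, adjusted p = 0.983) were not called. The list medians lay at −0.05 for collagens and basal lamina, −0.09 for endothelial, −0.14 for smooth muscle and pericyte, and −0.14 for stromal fibroblast markers. S100a4, a calcium-binding protein, was the 1 fibroblast marker called, at 34.5 to 148 CPM in 200H and 2.16 to 6.99 CPM in 200M (−4.40, SE 0.51, adjusted p = 0.00635), and it shares 302 exonic bases with Gm42674. Of 45 inhibin, activin, BMP and TGF-beta genes 1 was called (2.22%, against 1.61% of all genes tested). It was Ltbp1, the latent TGF-beta binding protein (−2.51, adjusted p = 0.0291), while Inha was at −0.54 (adjusted p = 0.598) and Inhba at −0.33 (adjusted p = 0.930). Mmp2 (−0.16, adjusted p = 0.813) and Mmp7 (2.02, adjusted p = 0.590) of the matrix proteases, and the heat shock genes Hspa1a (0.23, adjusted p = 0.843) and Hspa1b (0.46, adjusted p = 0.415), were not called.

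**Figure D4:**
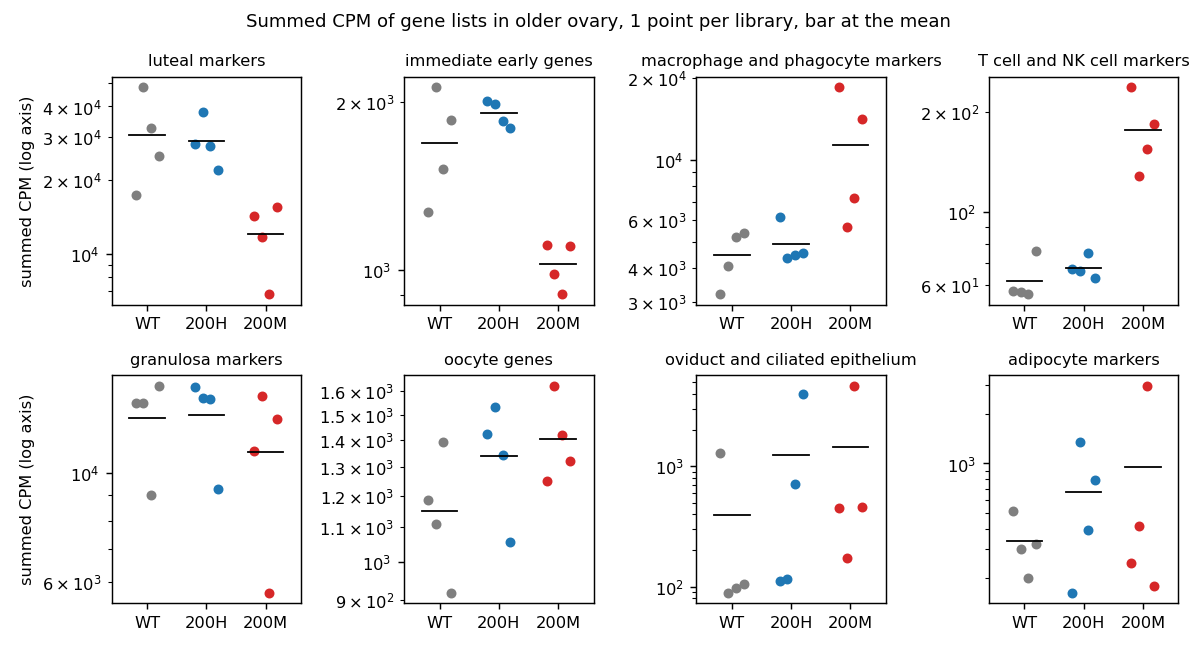
Summed CPM on a log axis of 8 gene lists in older ovary of WT (grey), 200H (blue) and 200M (red), 1 point per library, with a bar at the mean of 4. Luteal and immediate early sums are lower in all 4 200M libraries, T cell and NK cell sums are higher in all 4, macrophage sums are highest in 200M 1 and 4, and the oviduct sum is highest in 200H 4 and 200M 3.

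The luteal sum was lower, and the T cell and NK cell sum higher, in all 4 200M libraries than in any 200H library. The macrophage sum of 200M 2, at 5673 CPM, lay within the 200H range. These sums did not move in proportion. The luteal sum was lowest in 200M 3 (6815 CPM) and highest among 200M in 200M 4 (15458 CPM), while the macrophage sum was highest in 200M 1. The share of each in the results of the other, and the part of the oviduct RNA in 200M 3, was not tested. With the oviduct sum as a covariate, 448 genes were called, among them 286 of the 288.

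The 200H reference group was set beside WT, with which it shares the older cohort. Of 17605 genes tested for 200H against WT, edgeR called 0 (0%), while 1160 genes had p under 0.05 before adjustment and DESeq2 gave 21 calls. For 200M against WT, 482 of 17792 genes were called (2.71%). WT replicate 1 was rich in oviduct genes, with a sum of 1290 CPM against 89.4 to 105 CPM in the other WT libraries. Without WT replicate 1, 599 genes were called for 200M against WT. The comparisons share libraries, so their values are given side by side only. Akr1c18 was at −8.80 for 200M against WT (adjusted p = 0.00482) and 0.53 for 200H against WT (adjusted p = 0.870). Its WT libraries were at 644, 4815, 1413 and 405 CPM, a wide range that lay above every 200M library. Ptgfr was at −7.37 (adjusted p = 0.00152) and −0.04 (adjusted p = 0.990), and Onecut2 at −8.22 (adjusted p = 0.00252) and −0.19 (adjusted p = 0.931). Cd4 was at 3.96 (adjusted p = 0.00323) for 200M and 1.06 (adjusted p = 0.748) for 200H, with WT libraries at 2.16 to 4.56 CPM. Cdkn1c was at 3.38 (adjusted p = 0.00853) and 0.12 (adjusted p = 0.898). Dusp1 differed from this pattern in that 200M against WT was not called (−1.91, adjusted p = 0.125), as its WT libraries ranged from 21.5 to 137 CPM. Egr1 was likewise not called for 200M against WT (−0.32, adjusted p = 0.361).

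The same contrast was made in ovaries of young virgin females aged 8 to 12 weeks, which share no library with the older cohort but were made by another, stranded and ribosomal RNA-depleted chemistry. Age, breeding history and chemistry cannot be told apart between the cohorts. Of 19259 genes, edgeR called 0 (0%), while 648 genes had p under 0.05 before adjustment and DESeq2 gave 0 calls. Of the 161 genes lowered in older 200M, 137 were tested in young ovary, and 106 (77.4%) had a negative value there, against 51.5% of all young genes. Their median was −1.88 in older and −0.19 in young ovary. Of the 127 raised genes 105 were tested, 64 (61%) were positive against 48.5% of all, and their median was 1.43 in older and 0.07 in young ovary. The genes share the same 8 young libraries and are not independent. The study marks a young 200H ovary from a mouse whose other ovary showed no corpora lutea. It also marks a young 200M ovary from a mouse whose other ovary did show them. Which libraries these are is not given in the labels. Without young 200H 1, 1543 genes had p under 0.05 before adjustment, and without young 200M 2 it was 825, with 0 calls by edgeR in each. The part of these animals in the young result was not tested. Individual libraries were spread. Akr1c18 was at 1.71, 12.9, 13.2 and 56.1 CPM in young 200H and at 0.622, 25.8, 0.729 and 0.462 CPM in young 200M, so 200M 2 lay within the 200H range and the other 3 below it (log2 fold change −1.61, SE 1.07). Ptgfr showed the same order, at 17, 130, 18.7 and 103 CPM in 200H and 7.59, 106, 7.29 and 7.16 CPM in 200M. Insl3 was at 0.12, C7 at −0.04 and Cd4 at 0.49 in the young ovaries.

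**Figure D5:**
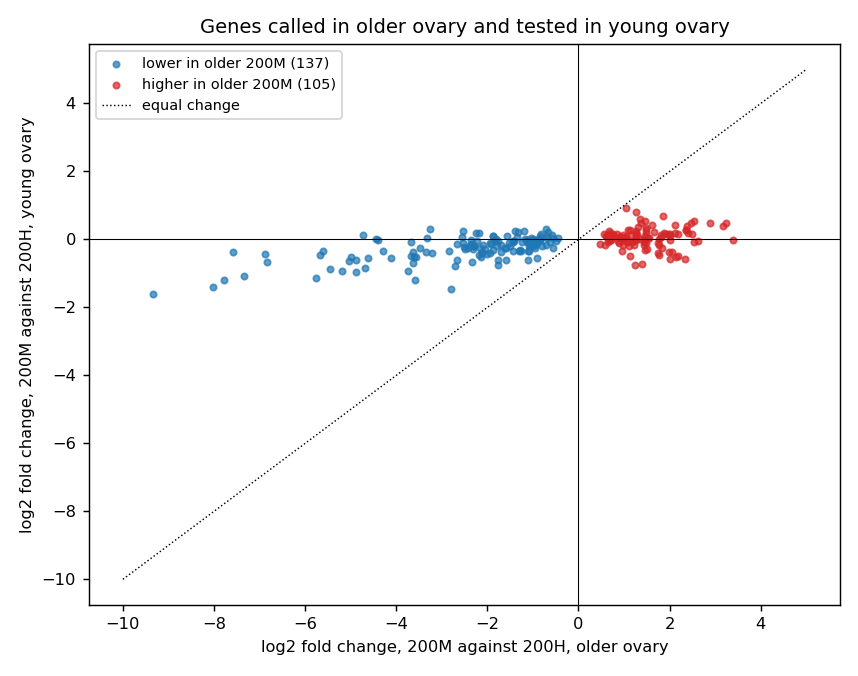
Log2 fold change of 200M against 200H in older (x axis) and young ovary (y axis) for the 242 genes called in older ovary that were tested in both, 137 lowered (blue) and 105 raised (red). The points lie near the horizontal line at 0 and away from the dotted line of equal change, and the lowered genes have a young median of −0.19.

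The difference between the cohorts was tested directly as an interaction in 21926 genes, of which 31 were called (0.141%). All 288 genes called in the older ovary were in that test and 30 were among the 31. Ccn5 (difference −7.33, SE 0.98, adjusted p = 0.00673), Dusp1 (−2.46, SE 0.32, adjusted p = 0.00568), C7 (2.65, SE 0.36, adjusted p = 0.00704), Nr4a1 (−2.50, SE 0.40, adjusted p = 0.0188), Cd4 (2.38, SE 0.41, adjusted p = 0.0306), Cdkn1c (2.74, SE 0.49, adjusted p = 0.0370) and Akr1c18 (−7.79, SE 1.44, adjusted p = 0.0453) changed more in the older cohort. Onecut2 (−6.66, adjusted p = 0.0739), Wnt10b (−6.63, adjusted p = 0.0635) and Ptgfr (−6.27, adjusted p = 0.0522) did not pass.

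The sequence before the gene starts was described for the called genes with RefSeq promoters, in windows of 300 bases around the start, read on both strands. Promoters were found for 103 of the 161 lowered genes (144 promoters) and 93 of the 127 raised genes (125 promoters). The E-box CAGGTG, which ZEB1 can bind, was in 17.4% of the former, 23.2% of the latter, 20.2% of all 32851 promoters and 18.9% of the 15442 promoters of genes tested. CAGGTA was in 6.94% of the promoters of lowered genes, 12% of those of raised genes, 12% of all promoters and 8.84% of those of genes tested. The motif CAAGGTCA of the steroidogenic nuclear receptors NR5A1 and NR5A2 was in 2.08%, 0% and 1.56%, against 1.18% for genes tested. The cAMP response element TGACGTCA, a palindrome through which cyclic AMP acts downstream of gonadotropin receptors, was in 5.56% (8 promoters), 1.6% and 1.79%, against 2.76% of the promoters of all genes tested. These are descriptions of letters in a window, with no test, and say nothing of binding.

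The stretches around TGACGTCA in the 8 promoters of lowered genes are shown because this was the motif with the largest share relative to all promoters. Each is 40 bases of GRCm38.p6, 5′ to 3′ on the strand of the gene, with the motif in capitals.
Dusp1, chr17:26508592-26508631, minus strand: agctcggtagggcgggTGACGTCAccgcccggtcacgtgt
Ltbp1, chr17:75005440-75005479, plus strand: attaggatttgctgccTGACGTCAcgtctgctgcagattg
Cdkn2b, chr4:89311055-89311094, minus strand: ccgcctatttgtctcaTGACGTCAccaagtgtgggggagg
Clstn3, chr6:124464762-124464801, minus strand: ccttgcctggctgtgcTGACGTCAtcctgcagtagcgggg
Dusp8, chr7:142095368-142095407, minus strand: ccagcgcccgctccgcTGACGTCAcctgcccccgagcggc
Mturn, chr6:54681536-54681575, plus strand: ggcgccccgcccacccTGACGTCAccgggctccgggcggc
Clasp2, chr9:113741426-113741465, plus strand: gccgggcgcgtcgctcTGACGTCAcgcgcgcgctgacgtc
Ormdl3, chr11:98587250-98587289, minus strand: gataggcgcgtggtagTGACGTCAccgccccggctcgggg
The log2 fold changes of these genes were −2.54 for Dusp1, −2.51 for Ltbp1, −3.67 for Cdkn2b, −2.13 for Clstn3, a synaptic cadherin, −1.77 for Dusp8, another MAP kinase phosphatase, −1.02 for Mturn, −0.91 for Clasp2, a microtubule plus-end protein, and −0.50 for Ormdl3, a regulator of sphingolipid synthesis. Clstn3, Dusp8, Mturn, Clasp2 and Ormdl3 were chosen for this motif after their values were seen and are not in the tally of fits with 1 library left out. The motif was also chosen for printing after the values were seen.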

How the data were processed

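Ovary RNA of older 200M, 200H and WT females and young 200M and 200H females was used, 4 libraries each. The authors deposited raw counts per gene. By their methods, older libraries were unstranded poly(A) RNA, sequenced single-end, aligned with STAR 2.7.1a to mm10 (GRCm38) and counted with featureCounts without strand on GENCODE genes. Reads of overlapping or antisense genes and of near-identical copies are therefore uncertain. The deposited fold changes and p-values from the authors' DESeq2 tests were not used.

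From the counts, edgeR 4.0.16 (R 4.3.3) was run with TMM scaling, filterByExpr and the quasi-likelihood test, with DESeq2 1.42.0 as an alternative. Standard errors were derived from the F statistic of each gene. Symbols matched 99.53% of IDs; positions and overlaps are from GENCODE M21. The interaction used 16 libraries. The code was tested on simulated data.

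Groups came from the labels. Genes named were Zeb1, Zeb2 and the miR-200 host transcripts; the 10 of smallest p per direction with no overlap of libraries; the 5 of largest change per direction above 1 CPM; and up to 4 called members of each list, or its first 2, of which 1 gene is not reported here. Other called list members, cell type markers and uncalled list members given with values were added after the values were seen. Members, lists and rules were chosen with earlier results of these data known.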

Additional observations from a re-analysis of the deposited data

Results flagged for a closer look

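In groups of 4 libraries, a library was taken as an outlier where its gap to the nearest other library as a share of the group's range exceeded Dixon's critical value. Of 294 such groups tested, 37 had one, where chance gives about 1 in 20. Most belonged to the libraries rich in oviduct RNA. In 200H 4 these were the summed oviduct genes (4021 CPM), epithelial genes (2212 CPM), granulosa markers (9258 CPM) and neutrophil and mast cell markers (361.4 CPM), with Epcam at 77.31, Ovgp1 at 2893, Pax8 at 41.7, Mmp7 at 3.682, Inha at 1995 and Gm31135 at 8.3 CPM. In 200M 3 they were the summed oviduct genes (4671 CPM), epithelial genes (3118 CPM), adipocyte markers (2968 CPM) and chaperones (8715 CPM), with Epcam at 108.8, Cdh1 at 196.3, Ovgp1 at 2826, Pax8 at 69.69, Adipoq at 165.2, Lep at 21.87, Col1a1 at 506.6, Egr1 at 49.82 and Cdkn2b at 11.98 CPM. The oviduct level was not assigned as the source of these values.

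The remaining outliers were spread over other libraries. Library 200H 2 stood out for Star (1635 CPM), Gpx3 (4198 CPM), Pecam1 (128.1 CPM), Ifit1 (17.19 CPM) and S100a8 (1.133 CPM). Library 200M 2 stood out for the summed Wnt genes (1846 CPM), Foxl2 (366.2 CPM), Nr4a1 (41.83 CPM), Olfml2b (7.791 CPM) and Plekhg4 (2.157 CPM). Library 200H 1 stood out for the summed macrophage markers (6178 CPM) and Gm15884 (28.57 CPM), 200M 1 for Csf3r (10.05 CPM) and 200M 4 for H2-Q6 (24.04 CPM).

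The change of 12 named genes differed between the older and young cohorts by the interaction test. The older minus young difference in log2 fold change was −7.79 for Akr1c18, −7.33 for Ccn5, −6.54 for Plekhg4, −5.50 for Bhmt, −5.20 for Gm31135, −4.40 for Gm5106, −2.50 for Nr4a1, −2.46 for Dusp1, −2.21 for Gpx3, 2.38 for Cd4, 2.65 for C7 and 2.74 for Cdkn1c. Age, breeding history and library chemistry cannot be told apart in this difference.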

How the results depend on the processing

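The 288 calls became 861 with DESeq2, 448 with the oviduct level as a covariate, 58 at an adjusted p under 0.01, and 77 to 357 with 1 library left out. Of 111 named genes 63 were called, and none of the 63 changed direction under any alternative. The 200M and 200H libraries of called genes did not overlap in CPM, so these fits could hardly have turned a sign. For 200M against WT the 482 calls became 1320 with DESeq2 and 87 to 599 with 1 library left out. For 200H against WT, DESeq2 called 21 and the fit without a filter 1. In young ovary the fit without a filter called 45, with 0 to 0 when 1 library was left out. The 31 interaction calls became 222 with DESeq2, 102 without a filter and 10 to 73 with 1 library left out. The 50 called list members became 105 with DESeq2 and 23 to 61 with 1 library left out. These causes were not tested.

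The replicate numbers did not pair the samples: deviations of same-numbered libraries correlated at 0.246, 0.234, 0.072 and −0.290, and 200M 3 correlated best with 200H 4 (0.772). With the replicate number as a block, calls fell to 77 for 200M against 200H (20 higher and 57 lower), 101 against WT, 10 for the interaction and 23 list members. Directions under the block turned for Epcam (−0.66), Adipoq (−0.24), Lep (−0.23) and Col1a2 (0.0458).

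Without the 2 oviduct-rich libraries, the sign turned for Zeb1 (0.0286), Zeb2 (0.0316), Epcam (−0.87), Amh (−0.14), Zp1 (−0.15), Zp3 (−0.0266), Gdf9 (−0.036), Cyp17a1 (0.11), Adipoq (−1.83), Lep (−2.10) and Col1a2 (0.23). With the oviduct covariate it turned for Gm13648 (−0.0705), Epcam (−0.90), Pax8 (−0.17), Adipoq (−0.91) and Lep (−0.74). With 1 library left out, log2 fold changes spanned 0 for Zeb1 (−0.13 to 0.0409), Zeb2 (−0.27 to 0.07), Gm13648 (−1.36 to 1.46), Gm15884 (−0.21 to 0.25), Epcam (−1.90 to 1.12), Cdh1 (−1.17 to 2.00), Ovgp1 (−1.95 to 3.09), Pax8 (−1.82 to 2.67), Adipoq (−1.96 to 1.19), Lep (−1.95 to 1.59), Amh (−0.0098 to 0.52), Inhba (−0.61 to 0.07), Lhcgr (−0.54 to 0.0653), Cyp17a1 (−0.40 to 0.28), Gdf9 (−0.14 to 0.11), Zp1 (−0.16 to 0.18), Zp2 (−0.0672 to 0.20), Zp3 (−0.0739 to 0.24), Col1a1 (−0.51 to 0.0909), Col1a2 (−0.17 to 0.21), Ifit2 (−0.34 to 0.0109) and Mylpf (−0.14 to 0.30). None of these genes was called.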
